A study of Rattus norvegicus with 12 samples.

Results

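The gp130 receptor family is described here in cultured rat astrocytes by 9 genes, the receptor chains Lifr, Il6st, Osmr, Il6r and Cntfr and the ligands Lif, Clcf1, Cntf and Il11. They are 9 of 18166 genes measured, and each had exactly 1 row of the array table paired with it alone, so 0 listed genes were skipped and 0 fell to a filter. The genes were chosen by family name with earlier measured values of these arrays known, among them the level of Lifr with GW against that without it. That difference is therefore given as a description without a test. The p-values of the other members come from fits over all genes and make no allowance for the way the list was drawn up.

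Astrocytes were cultured from cortex of 1-day-old Sprague-Dawley rats and kept without serum before use, a step meant to remove microglia and meningeal cells. The 4 groups held 3 arrays each: SHP siRNA with IFN-γ and GW, control siRNA with IFN-γ and GW, control siRNA with IFN-γ, and control siRNA with neither agent. They are called the SHP siRNA, IFN-γ + GW, IFN-γ and control siRNA arrays below. IFN-γ is a cytokine of T cells and natural killer cells, GW is an agent known here only by that label, and exposure lasted 3 h. Every group carried an siRNA, so there were no untransfected cells, no GW without IFN-γ and no SHP siRNA without both agents. Whether the arrays of a group were separate cultures is not stated, so p-values measure the spread between arrays, which may be technical.

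Values are log2 levels, and differences of levels are log2 differences. A level was read as background at or under 5.34, the 95th percentile of 1343 olfactory and vomeronasal receptor genes. Nr0b2, the gene of SHP (small heterodimer partner), was at 5.12, 4.94 and 4.81 in the SHP siRNA arrays, against 4.70, 4.78 and 4.91 in the IFN-γ + GW arrays, and lay between 4.59 and 5.09 on the other arrays. It was thus at background throughout and gave no check of the SHP siRNA label. Of 14 astrocyte markers 12 had a row, and Gfap, the astrocyte filament gene, lay between 11.72 and 12.06. Of 16 microglia markers 15 had a row and all 15 were above background on every array. Above background on an array were also 5 to 8 of 10 meningeal and vascular markers with a row. For neuron markers it was 7 to 11 of 14, and for oligodendrocyte markers 10 to 12 of 12. The signals therefore cannot be assigned to astrocytes alone. In such bulk RNA, fewer cells of a type and less RNA per cell cannot be told apart. Arrays numbered 1 in their titles stood apart from numbers 2 and 3: 6824 genes, 37.6% of those tested, differed (limma, adjusted p under 0.05, with group as a term). Each comparison is therefore also given in a paired fit, with title number as a block, and without number 1.

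The gp130 cytokines share the signal-transducing chain gp130, encoded by Il6st. LIF binds the LIF receptor with gp130, CNTF and CLCF1 bind the CNTF receptor α chain and then the LIF receptor with gp130, oncostatin M uses its own receptor chain with gp130, and IL-6 and IL-11 bind α chains that pair gp130 with itself. The receptors activate JAK kinases and the transcription factor STAT3, and SOCS proteins damp the signal. In the brain, CNTF and LIF are known for driving astrocyte differentiation and reactivity.

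With GW the ligand genes moved in both directions. Lif, Clcf1 and Il11 were higher and Cntf lower in the IFN-γ + GW arrays than in the IFN-γ arrays of the same number, in 3 of 3 numbers each. Of the 8 members other than Lifr, 0 passed in the unpaired limma fit, where 0.886% of all genes passed; 6 of the 8 had an unadjusted p under 0.05, as did 11.4% of all genes. In the paired fit 4 rose (Lif, Clcf1, Il11 and Il6r) and Cntf fell, where 3.64% of all genes rose and 2.91% fell. Without number 1 the count was again 4 higher and 1 lower, where 6.47% of all genes rose and 4.98% fell. In paired fits that left out 1 number, 5 of the 8 passed without number 1, and 0 passed without number 2 or without number 3. Of all 18166 genes, 1776, 12 and 86 passed in the fits without numbers 1, 2 and 3, so few genes of any kind passed without number 2 or 3. Groups did not overlap for Clcf1, Cntf and Il6st, 3 of the 8, and for 15.3% of all genes.

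Lif encodes leukaemia inhibitory factor. Its levels were 10.84, 9.41 and 9.25 in the IFN-γ + GW arrays numbered 1, 2 and 3, against 9.85, 7.12 and 6.66 in the IFN-γ arrays. Number 1 was the highest in both groups, and the groups overlapped only through it. The difference was 1.96 ± 0.77 (SE, n = 3 arrays a group; 3.89-fold; limma adjusted p = 0.35), with an SE of 0.41 and an adjusted p of 0.024 in the paired fit and 2.44 without number 1 (adjusted p = 5.11e-05). The control siRNA arrays had 7.90, 6.18 and 6.06, so that the IFN-γ + GW arrays lay above them without overlap. That difference was 3.12 ± 0.77 (SE, n = 3; 8.71-fold; limma adjusted p = 0.11; 0.0032 in the paired fit), and it was alike in numbers 1, 2 and 3 (2.94, 3.23 and 3.20). With IFN-γ alone Lif differed from control siRNA by 1.94, 0.93 and 0.61 in numbers 1, 2 and 3 (mean 1.16 ± 0.77 SE, limma adjusted p = 1.00; 0.30 in the paired fit; 0.77 and 0.027 without number 1). Ordered by mean level, the IFN-γ + GW, SHP siRNA, IFN-γ and control siRNA arrays followed each other, and each neighbouring pair overlapped.

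Clcf1 encodes cardiotrophin-like cytokine factor 1. It was at 8.84, 8.20 and 7.85 in the IFN-γ + GW arrays, against 7.77, 6.53 and 5.95 in the IFN-γ arrays, and these groups did not overlap. The difference was 1.55 ± 0.39 (SE, n = 3; 2.92-fold; limma adjusted p = 0.12; 0.0059 in the paired fit). Against control siRNA arrays, at 7.03, 6.56 and 6.67, it was 1.54 ± 0.39 (limma adjusted p = 0.12; 0.0057 in the paired fit). IFN-γ without GW gave differences of 0.74, -0.03 and -0.73 in numbers 1, 2 and 3, a mean of -0.00 (95% interval -0.87 to 0.86). The sign thus differed between numbers, and the IFN-γ and control siRNA levels overlapped. The SHP siRNA level (mean 8.02) lay clear above that of control siRNA and overlapped that of IFN-γ + GW.

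Il11 encodes interleukin 11. It was close to background: levels were 6.72, 6.12 and 5.77 in the IFN-γ + GW arrays, against 6.02, 4.77 and 5.19 in the IFN-γ arrays and 5.49, 5.13 and 5.29 in the control siRNA arrays. All 3 arrays with IFN-γ + GW were above background, and 1 of 3 in each of the other groups named. The difference of IFN-γ + GW from IFN-γ was 0.88 ± 0.30 (SE, n = 3; limma adjusted p = 0.25; 0.034 in the paired fit) and that from control siRNA 0.90 ± 0.30 (limma adjusted p = 0.24; 0.03 in the paired fit). Since the low arrays are at background, these differences may understate the change. The second pair of groups did not overlap, and the first did.

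Cntf encodes ciliary neurotrophic factor, a cytokine without a signal peptide that astrocytes are known to make. It went against the other ligand genes. Its levels were 8.96, 8.53 and 8.57 in the IFN-γ + GW arrays, against 9.62, 9.06 and 9.02 in the IFN-γ arrays and 9.74, 9.34 and 9.25 in the control siRNA arrays. Neither comparison overlapped. The difference of IFN-γ + GW from IFN-γ was -0.55 ± 0.19 (SE, n = 3; limma adjusted p = 0.27; 0.0079 in the paired fit) and that from control siRNA -0.76 ± 0.19 (limma adjusted p = 0.11; 0.0018 in the paired fit). The SHP siRNA arrays were the lowest of the 4 groups by mean (8.40) and overlapped those of IFN-γ + GW.

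**Figure D1:**
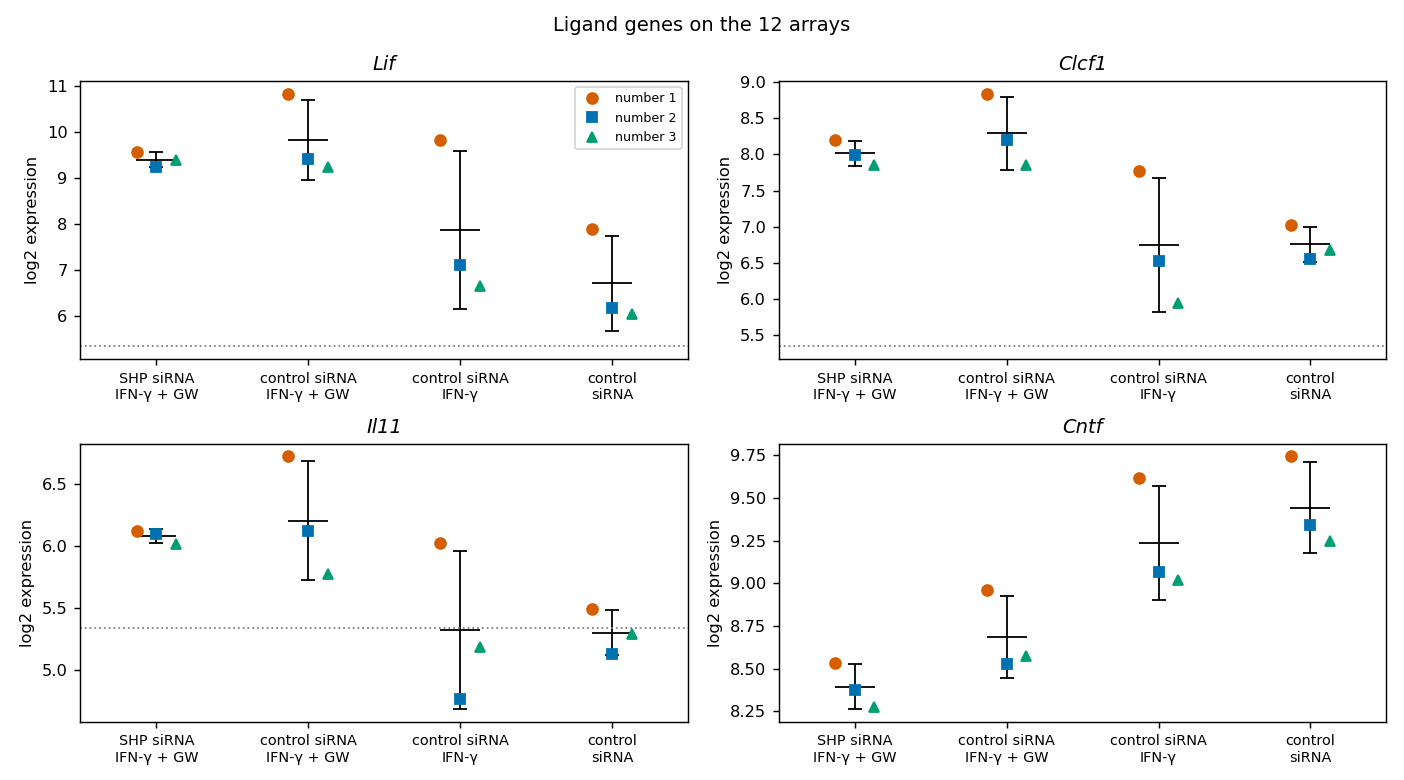
Log2 expression of the 4 ligand genes (y axis, scaled separately for each gene) on 12 arrays in 4 groups (x axis); points are arrays, marked by title number, and black bars are the mean ± SD of 3 arrays. The dotted line is the background level of 5.34. Lif, Clcf1 and Il11 are high and Cntf is low in the groups with GW, and number 1 is the highest array in each group for the 4 genes.

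The stretch before the transcription start is shown for Il11 and Cntf, a pair of genes whose levels moved in opposite directions with GW in the paired fit and which both hold the same short motif. Sequences are 250 bases of RefSeq (GRCr8), 5′ to 3′ on the gene's strand, ending at the base before the start site. Capitals mark matches to TGANTCA, the site of the AP-1 factors to which Fos belongs.
Il11 (chr1:78098372-78098621, plus strand): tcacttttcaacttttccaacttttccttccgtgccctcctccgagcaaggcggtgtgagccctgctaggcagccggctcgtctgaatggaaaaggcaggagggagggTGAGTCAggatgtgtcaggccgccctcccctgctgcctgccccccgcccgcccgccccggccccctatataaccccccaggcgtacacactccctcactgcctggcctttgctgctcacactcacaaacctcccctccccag
Cntf (chr1:219314536-219314785, minus strand): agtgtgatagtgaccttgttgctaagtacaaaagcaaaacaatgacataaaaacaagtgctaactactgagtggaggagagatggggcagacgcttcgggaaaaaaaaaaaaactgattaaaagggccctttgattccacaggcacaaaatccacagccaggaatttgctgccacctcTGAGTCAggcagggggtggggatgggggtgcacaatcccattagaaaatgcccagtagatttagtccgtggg
The match begins at -142 in Il11 and at -72 in Cntf. RefSeq windows were found for 6 of the 9 members, Lifr, Il6st, Osmr, Il6r, Cntf and Il11, and 3 of the 6 held TGANTCA, the third being Osmr at -33. Of all 33469 windows 6.34% held it. The STAT string TTCNNNGAA (7.67% of windows) and the CRE string TGACGTCA (1.59%) were in 0 of the 6. Each string is its own reverse complement, so that both strands were covered, and no string lies within another. The windows of Lifr, Il6st, Il6r and Osmr begin their transcript 11602, 11360, 1496 and 241 bases inside the outer limit of the gene. For Lifr, Il6st and Il6r that limit lies outside the window, and for Osmr within it. A match shows only these letters.

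Among the receptor genes, Lifr and Il6st were highest with IFN-γ and lower when GW was added, while Il6r was highest with GW. Of the 9 members 0 passed for IFN-γ against control siRNA in the unpaired limma fit, where 0.121% of all genes passed, and 0 in the paired fit (0.936% of all genes); 2 of 9 had an unadjusted p under 0.05 (5.5% of all genes), and the same number, Lifr and Il6st, had groups that did not overlap (9.3% of all genes). Without number 1, Lifr, Il6st and Lif rose in the unpaired fit, where 3.05% of all genes rose, and Il6st was not called with the block added (adjusted p = 0.055). For IFN-γ + GW against control siRNA, 0 of 9 passed unpaired, where 0.864% of all genes passed, and 6 had an unadjusted p under 0.05 (11.3% of all genes). In the paired fit 4 were higher (Il6r, Lif, Clcf1 and Il11) and 1 lower (Cntf), where 2.94% of all genes were higher and 3.9% lower. The paired count was 5 without number 1, 3 without number 3 (Lif, Clcf1 and Cntf) and 0 without number 2. In the paired fit without number 1, Lifr was called (-0.63, adjusted p = 0.032) and Il11 was not (adjusted p = 0.067). Of all 18166 genes, 779 passed without number 1, 25 without number 2 and a count between these without number 3. In the unpaired fit without number 1, Il6r, Lif, Clcf1 and Il11 were higher and Cntf and Lifr lower, where 3.31% and 2.35% of all genes were. Groups did not overlap for 5 of 9, the genes called in the paired fit of all 3 numbers, and for 18.2% of all genes. The comparisons share arrays, so each is read by its own values.

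Lifr encodes the LIF receptor chain. Its levels were 8.32, 9.27 and 9.07 in the IFN-γ arrays, against 8.29, 7.96 and 8.06 in the control siRNA arrays. The groups did not overlap, but number 1 exceeded the highest control by very little. The difference was 0.78 ± 0.24 (SE, n = 3; 1.72-fold; limma adjusted p = 0.54; 0.23 in the paired fit), made up of 0.03, 1.30 and 1.02 in numbers 1, 2 and 3. Without number 1 it was 1.16 (limma adjusted p = 6.64e-04). Each comparison of Lifr between groups uses IFN-γ or IFN-γ + GW arrays, which also gave the difference known when the genes were listed. The p-values of Lifr therefore give no independent support.

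When GW was added, Lifr was at 8.03, 7.28 and 7.49, against 8.32, 9.27 and 9.07 with IFN-γ. The groups did not overlap. The difference, known when the genes were listed, was -1.29 (SE 0.24), with -0.30, -1.99 and -1.59 in numbers 1, 2 and 3 and -1.79 without number 1. Against control siRNA, Lifr with IFN-γ + GW differed by -0.51 ± 0.24 (SE, n = 3; limma adjusted p = 0.47; 0.26 in the paired fit; -0.63 and 0.017 without number 1) and was lower in 3 of 3 numbers. By mean, the IFN-γ arrays came first and were clear of the control siRNA arrays. The control siRNA and SHP siRNA arrays and the SHP siRNA and IFN-γ + GW arrays overlapped.

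Il6st encodes gp130. Its differences were small beside those of Lifr but came from a narrow spread. Levels were 10.65, 10.75 and 10.79 in the IFN-γ + GW arrays, against 10.96, 11.13 and 11.03 in the IFN-γ arrays and 10.79, 10.64 and 10.70 in the control siRNA arrays. The IFN-γ arrays were clear of both other groups, which overlapped each other. IFN-γ against control siRNA gave 0.33 ± 0.09 (SE, n = 3; limma adjusted p = 0.38; 0.13 in the paired fit; 0.41 and 0.03 without number 1, and 0.055 without number 1 in the paired fit). IFN-γ + GW against IFN-γ gave -0.31 ± 0.09 (limma adjusted p = 0.17; 0.057 in the paired fit), with -0.31, -0.38 and -0.24 in numbers 1, 2 and 3.

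Il6r encodes the IL-6 receptor α chain. It was at 8.30, 7.92 and 7.88 in the IFN-γ + GW arrays, against 7.92, 7.18 and 7.11 in the IFN-γ arrays, which overlapped through number 1. The difference was 0.63 ± 0.21 (SE, n = 3; 1.55-fold; limma adjusted p = 0.25; 0.0088 in the paired fit). Against the control siRNA arrays, at 7.64, 7.35 and 7.37, the IFN-γ + GW arrays were higher without overlap, by 0.58 ± 0.21 (limma adjusted p = 0.30; 0.012 in the paired fit). IFN-γ alone gave 0.29, -0.17 and -0.26 in numbers 1, 2 and 3.

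Osmr, the oncostatin M receptor chain, and Cntfr, the CNTF receptor α chain, had 0 calls in any of the comparisons of groups. Osmr was at 10.67, 10.19 and 10.06 in the IFN-γ + GW arrays, 10.12, 10.47 and 10.10 in the IFN-γ arrays and 10.11, 9.65 and 9.80 in the control siRNA arrays. Its lowest group by mean was control siRNA, and IFN-γ + GW differed from it by 0.46 ± 0.17 (SE, n = 3; limma adjusted p = 0.33; 0.13 in the paired fit), higher in 3 of 3 numbers. Cntfr was at 9.36, 8.38 and 8.52 in the IFN-γ + GW arrays, 9.54, 8.24 and 8.41 in the IFN-γ arrays and 9.59, 8.65 and 8.64 in the control siRNA arrays. Each neighbouring pair of groups overlapped for both genes, and number 1 was the highest Cntfr array of each group. For Cntfr the difference of IFN-γ + GW from IFN-γ was 0.02 (95% interval -0.89 to 0.94).

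**Figure D2:**
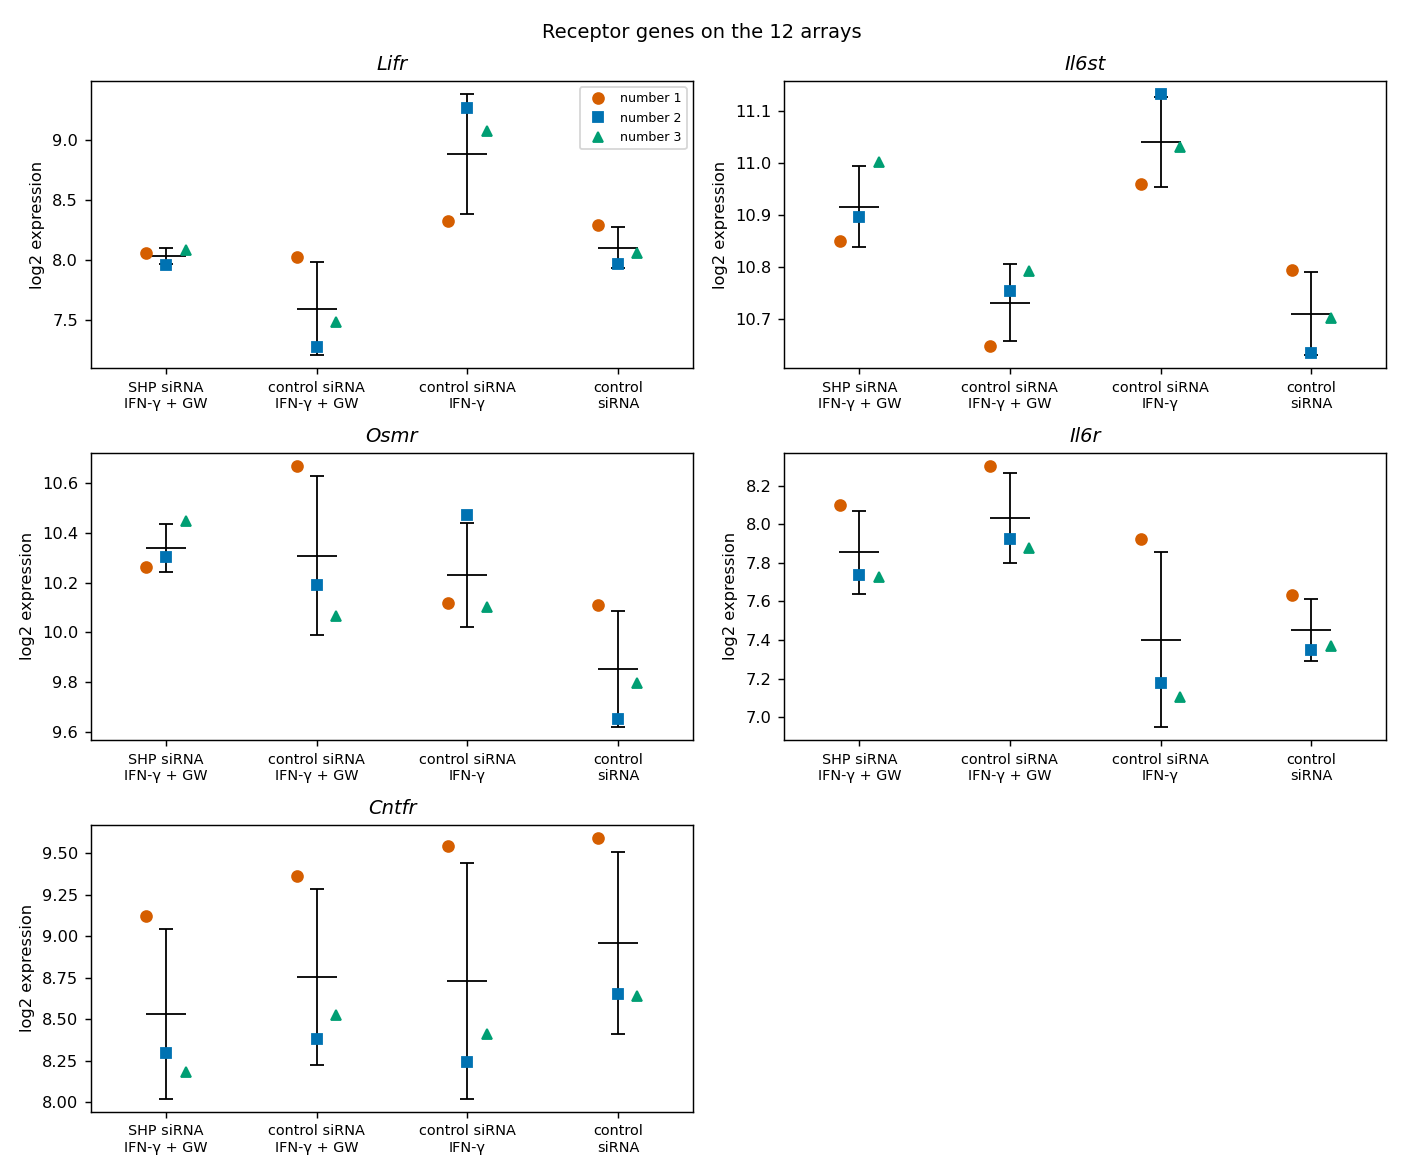
Log2 expression of the 5 receptor genes (y axis, scaled separately for each gene) on 12 arrays in 4 groups (x axis); points are arrays, marked by title number, and black bars are the mean ± SD of 3 arrays. Lifr and Il6st are highest with IFN-γ and control siRNA and Il6r with IFN-γ + GW, while Cntfr shows number 1 above the others in each group.

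Markers of some other cells moved along with GW. The summed level of the 15 microglia markers (log2 of the sum of linear values) was 12.97, 12.69 and 12.80 in the IFN-γ + GW arrays, against 13.49, 13.18 and 13.17 in the IFN-γ arrays. These did not overlap. In the control siRNA arrays the sum was 13.82, 13.24 and 13.13. Of the 15, 0 passed in the unpaired limma fit of IFN-γ + GW against IFN-γ, where 0.886% of all genes passed. In the paired fit 10 fell, where 2.91% of all genes fell. The median was -0.45, with 14 lower by mean and 1 higher, Cx3cr1 (8.11 against 7.55). For the 12 astrocyte markers the sum was 13.90, 14.25 and 14.28 with IFN-γ + GW, against 14.07, 14.34 and 14.32 with IFN-γ. These overlapped, and the sum was lower in 3 of 3 numbers. Of the 12, 0 passed unpaired and 1 fell in the paired fit. The 10 meningeal and vascular markers summed to 10.92, 12.55 and 12.67 with IFN-γ + GW, against 10.93, 12.56 and 12.71 with IFN-γ. These overlapped too and were slightly lower in 3 of 3 numbers, and 0 of the 10 passed in either fit. The 14 neuron markers summed to 12.11, 12.11 and 12.13 with IFN-γ + GW, against 12.27, 12.35 and 12.26 with IFN-γ, without overlap. That sum mostly follows 1 gene, Stmn2, at 11.58, 11.58 and 11.60 with IFN-γ + GW, against 11.81, 11.84 and 11.75 with IFN-γ. By mean, 10 of the 14 were lower and 4 higher, and 0 of them passed in either fit. The 12 oligodendrocyte markers summed to 10.70, 11.35 and 11.36 with IFN-γ + GW, against 10.85, 11.46 and 11.54 with IFN-γ, lower in 3 of 3 numbers, and 0 passed. The part of these shifts in the lower Lifr and Cntf and the higher Lif, Clcf1, Il11 and Il6r was not tested.

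In the comparison of SHP siRNA with control siRNA, both with IFN-γ and GW, 0 of the 9 members and 0 of 18166 genes passed (limma, paired or not; 0% of all genes). At an unadjusted p under 0.05 there were 0 members and 416 genes (2.29% of all genes). Any direction rests on the siRNA labels, as Nr0b2 was at background. Lifr was at 8.06, 7.96 and 8.09 in the SHP siRNA arrays, against 8.03, 7.28 and 7.49 in the IFN-γ + GW arrays, which overlapped. The difference was 0.44 (95% interval -0.09 to 0.97), with 0.03, 0.68 and 0.60 in numbers 1, 2 and 3. Without number 1 it was 0.64 and Lifr was the 1 member of 9 that passed (limma adjusted p = 0.031), where 1.35% of all genes were higher. With the block added it no longer passed (adjusted p = 0.058). These p-values also use the IFN-γ + GW arrays of the Lifr difference known beforehand.

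Il6st was at 10.85, 10.90 and 11.00 in the SHP siRNA arrays, against 10.65, 10.75 and 10.79 in the IFN-γ + GW arrays. It was the 1 member whose groups did not overlap, as for 6.47% of all genes. The difference was 0.18 (95% interval -0.01 to 0.38; limma adjusted p = 1.00). Levels of the ligand genes overlapped between these groups: Lif was at 9.58, 9.24 and 9.40 in the SHP siRNA arrays and differed by -0.43 (95% interval -2.14 to 1.28), and Clcf1 by -0.28 (95% interval -1.14 to 0.59). For both, number 1 gave the lowest difference (-1.26 for Lif and -0.64 for Clcf1). Cntf, at 8.53, 8.38 and 8.27 in the SHP siRNA arrays, had a difference of -0.29 (95% interval -0.71 to 0.13) and was lower in 3 of 3 numbers. Il6r (-0.18) and Cntfr (-0.22) were also lower in 3 of 3 numbers. The others were Il11 (-0.12) and Osmr (0.03).

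**Figure D3:**
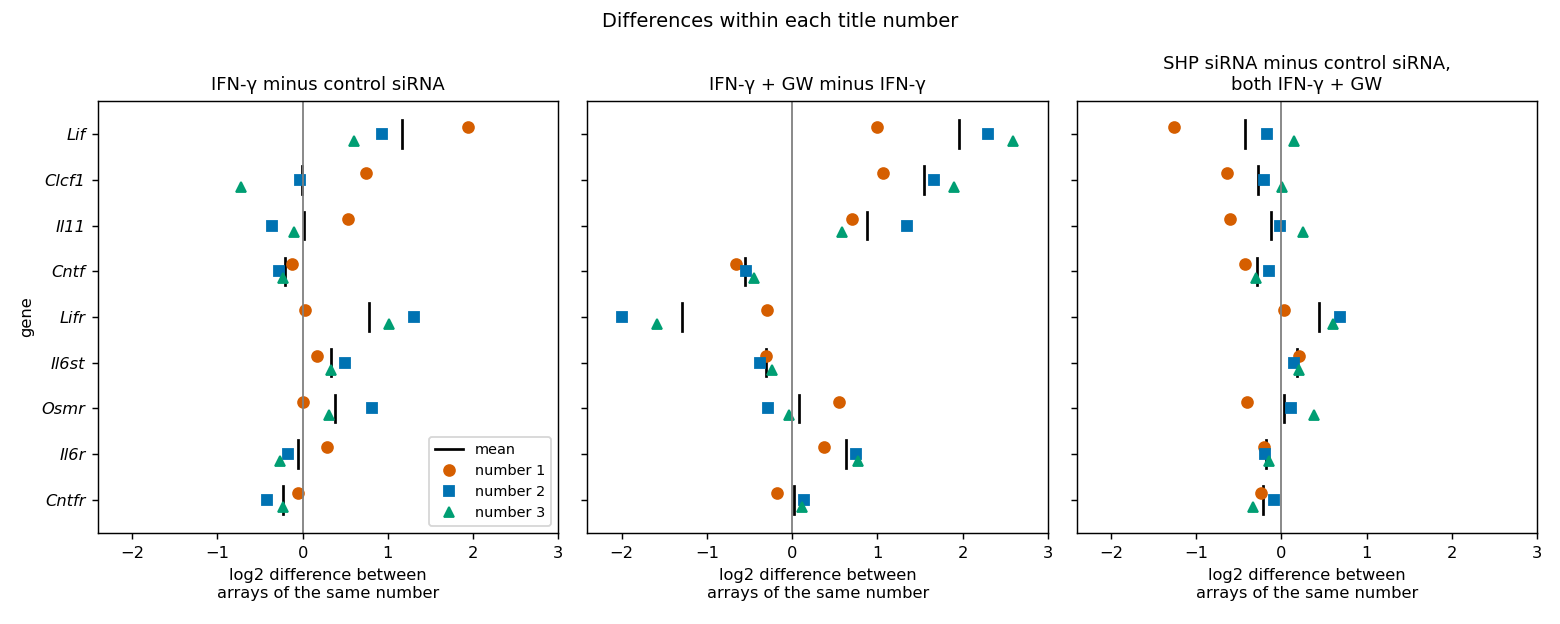
Log2 difference between 2 arrays of the same title number (x axis) for the 9 members (y axis) in 3 comparisons (panels); points are the 3 numbers and black ticks their mean. With GW the points of Lif, Clcf1, Il11 and Il6r lie above 0 and those of Cntf, Lifr and Il6st below 0 in each number, whereas for Lifr number 1 lies nearest to 0 in each panel.

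Members also differed between title numbers. Number 1 exceeded the mean of numbers 2 and 3 in 4 of 4 groups for Lif, Clcf1, Cntf, Il11, Il6r and Cntfr, and these 6 of 9 members passed, all higher (limma with group as a term), where 20.4% of all genes were higher and 17.2% lower. The difference was 1.63 ± 0.31 for Lif (SE; adjusted p = 0.0021), 0.99 ± 0.07 for Cntfr (adjusted p = 4.88e-06), 0.76 for Clcf1, 0.54 for Il11, 0.46 for Il6r and 0.41 for Cntf. Lifr (0.03), Il6st (-0.05) and Osmr (0.16) did not pass. For Lif the excess was 0.26 in the SHP siRNA arrays, 1.51 with IFN-γ + GW, 2.96 with IFN-γ and 1.78 with control siRNA; for Cntfr it lay between 0.88 and 1.22. Lifr had its only negative value, -0.85, in the IFN-γ arrays. The summed level of the 10 meningeal and vascular markers was 10.92 to 11.29 in number 1 and 12.51 to 12.78 in numbers 2 and 3, and 7 of the 10 fell in number 1 while 0 rose. Of the 15 microglia markers 10 rose and 1 fell, with a median of 0.40. Of the 12 astrocyte markers 3 rose and 6 fell, of the 12 oligodendrocyte markers 1 rose and 5 fell, and of the 14 neuron markers 1 rose and 6 fell. The part of these marker lists in the members' differences was not tested.

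**Figure D4:**
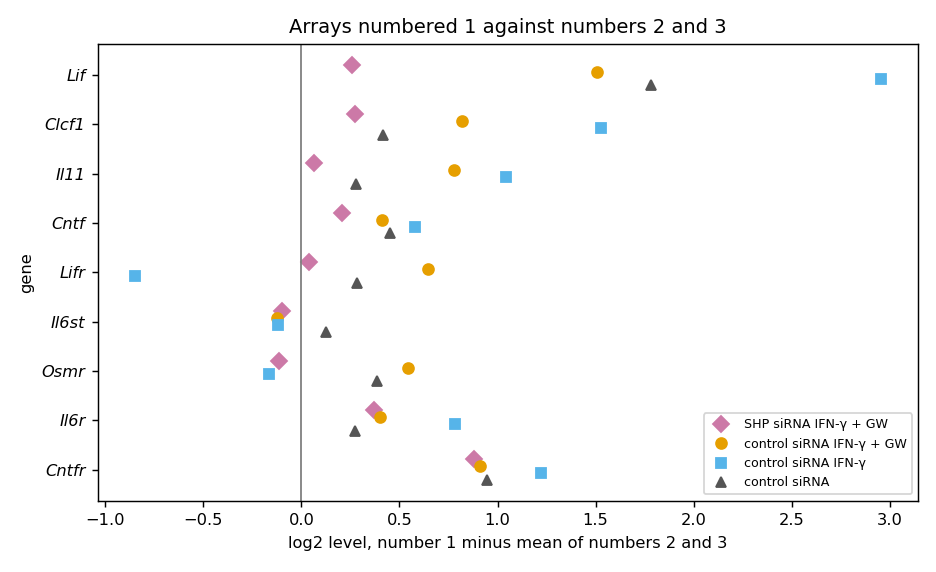
Log2 level in number 1 minus the mean of numbers 2 and 3 (x axis) for the 9 members (y axis), with 1 point per group of arrays. The 4 ligand genes, Il6r and Cntfr lie above 0 in each group, with Lif in the IFN-γ arrays farthest at 2.96, while Lifr in the IFN-γ arrays lies at -0.85.

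The family's other ligands and receptors were looked at as a list of 11, of which 9 had a row. In each of the 4 comparisons of groups 0 passed in the unpaired limma fit, where 0% to 0.886% of all genes passed. Their medians were 0.07 for IFN-γ, 0.02 for GW and 0.05 for SHP siRNA, against -0.03, 0.00 and -0.02 over all genes. Il6, the gene of interleukin 6, was at 10.74, 7.82 and 6.88 in the IFN-γ + GW arrays, against 10.24, 4.28 and 4.63 in the IFN-γ arrays and 6.73, 4.32 and 4.48 in the control siRNA arrays. With IFN-γ alone and with control siRNA, only number 1 was above background. The difference of IFN-γ + GW from control siRNA was 3.30 (SE 1.5, n = 3 arrays a group; limma adjusted p = 0.45; 0.024 in the paired fit), and that from IFN-γ 2.10 (adjusted p = 0.71; 0.11 in the paired fit). Without number 1 the differences were 2.94 (adjusted p = 0.0037) and 2.90 (adjusted p = 0.0018). As numbers 2 and 3 without GW were at background, these values may understate the change. Ebi3, a subunit of IL-27, stood out by number: it was 1.87 higher in number 1 (limma adjusted p = 3.56e-06).

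The kinases, STATs and adaptors downstream formed a list of 15 with 14 rows. For IFN-γ against control siRNA 0.121% of all genes passed unpaired and 0.936% in the paired fit. IFN-γ changed 0 of them in the unpaired limma fit and raised 2 in the paired fit: Jak2, a kinase of gp130 and of the IFN-γ receptor (0.98 ± 0.24 SE; paired adjusted p = 0.0035), and Stat3 (0.59 ± 0.15; paired adjusted p = 0.035). With GW 1 rose unpaired, Irs2, an adaptor of insulin and cytokine receptors (1.60 ± 0.29 SE, limma adjusted p = 0.036). In the paired fit 2 rose, Irs2 and the adaptor Gab2 (0.45), and Jak2 fell (-0.68, adjusted p = 0.0067). Of all genes 0.886% passed unpaired with GW, and 3.64% rose and 2.91% fell in the paired fit. Stat3 with GW had -0.08 (adjusted p = 0.92). The list's medians were 0.03 with IFN-γ and -0.03 with GW, near those of all genes.

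Of 10 feedback inhibitors, all with a row, Socs2 rose with IFN-γ (1.54 ± 0.24 SE, limma adjusted p = 0.046) and the median was 0.58. In the paired fit 3 rose, Socs2, Cish (1.46) and Socs1 (3.59). Of all genes 0.121% passed unpaired with IFN-γ and 0.936% in the paired fit. With GW Dusp6, a phosphatase of ERK kinases, rose (1.40 ± 0.21 SE, limma adjusted p = 0.015) and Socs1 fell (-3.52 ± 0.66 SE, adjusted p = 0.038), where 0.886% of all genes passed. In the paired fit 3 fell, among them Socs2 (-0.91), where 2.91% of all genes fell. Socs3 encodes the SOCS protein known to bind gp130. It was at 10.62, 8.47 and 8.19 with IFN-γ + GW, against 8.84, 8.26 and 8.31 with IFN-γ and 8.57, 6.26 and 6.64 with control siRNA. Number 1 was the highest of each group. IFN-γ + GW exceeded control siRNA by 1.94 ± 0.67 (SE; limma adjusted p = 0.27; 0.016 in the paired fit).

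Genes known as STAT3 targets in various cells formed a list of 20 with 18 rows. With IFN-γ 0 passed unpaired, where 0.121% of all genes passed, and 3 rose in the paired fit, where 0.936% of all genes passed. The median was 0.31. With GW Fos rose (3.46 ± 0.48 SE, limma adjusted p = 0.013); in the paired fit 4 rose, among them Myc (1.44, adjusted p = 0.0041), and 1 fell, Timp1, an inhibitor of matrix proteases (-0.49, adjusted p = 0.043). Of all genes 0.886% passed unpaired with GW, and 3.64% rose and 2.91% fell in the paired fit. The list's median with GW was -0.00. Gfap was not among those that passed, at 11.81, 12.04 and 12.06 with IFN-γ + GW, against 11.73 to 12.04 with IFN-γ. Of 6 genes of receptor shedding and trafficking 5 had a row, and 0 passed unpaired; Erap1 fell with GW in the paired fit (-0.37, adjusted p = 0.033). Against control siRNA, IFN-γ + GW gave higher Fos (3.54), Myc (2.07), Irs2 (1.58) and Dusp6 (1.57), each past the unpaired limma threshold. With SHP siRNA 0 genes of these lists passed in either fit. Without number 1, SHP siRNA gave 1 higher transducer, Jak2 (0.65, limma adjusted p = 0.013), and 3 higher feedback genes, among them Socs1 (3.54, adjusted p = 6.89e-05) and Socs2 (0.63, adjusted p = 0.031). It also gave 3 higher STAT3 targets. In that fit 1.35% of all genes were higher.

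Among 12430 genes above background on average, those most like Lifr over the 12 arrays, once each number's mean was removed, were Tnfsf10 (Pearson's r = 0.97), Flot2 (0.97), Nmi (0.97), Hgf (0.96) and Pik3cd (0.96). By mean, Tnfsf10 was above background only with IFN-γ (7.31), the group where Lifr was highest, and it passed the filter only through that group. It was at 4.52 with IFN-γ + GW, 5.32 with SHP siRNA and 5.22 with control siRNA. Those most like Lif were Dusp16 (0.99), Phlda1 (0.98), Brd1 (0.98), Rhob (0.98) and Mier3 (0.98). Between members, Lif had r = 0.93 with Clcf1, 0.89 with Il11, 0.89 with Il6r and -0.80 with Cntf, and Lifr had 0.71 with Il6st, -0.52 with Lif and -0.81 with Il6r. Without removing each number's mean, r ran from 0.60 (Hgf) to 0.97 (Tnfsf10) for the 5 genes most like Lifr. For the 5 most like Lif it ran from 0.94 (Phlda1) to 0.98 (Rhob). Lif then had 0.94 with Clcf1, 0.91 with Il11, 0.92 with Il6r and -0.42 with Cntf. Lifr had 0.69 with Il6st, -0.44 with Lif and -0.63 with Il6r. These are descriptions over 12 arrays, among which arrays of the same number deviated together before its mean was removed.

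Some members are neighbours in the genome. In RefSeq GRCr8 no protein-coding gene lies between Lifr and Osmr on chromosome 2, between Il6st and Il31ra on chromosome 2, or between Lif and Osm on chromosome 14. With GW, Lifr differed by -1.29 and Osmr by 0.08, and Lif by 1.96 while Osm was at 7.08, 6.73 and 6.72, against 7.15, 6.41 and 6.92 with IFN-γ. These neighbours thus had different values. Il6r overlaps She, Clcf1 overlaps Rad9a and Il6st overlaps LOC134485838 in that annotation. Probe positions were not used here, so a share of signal from the overlapping gene was not tested.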

How the data were processed

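RNA of 12 samples of cultured rat astrocytes was measured on whole-transcript arrays, with total RNA extracted by Trizol and cDNA labelled with biotin, per the labels' protocols. The authors deposited a table of log2 expression (36685 rows, each a transcript cluster; 1.01 to 13.4); the log base was inferred from this range. Background correction, summarisation and normalization are not given in the sources used here. Of the rows, 18511 were paired with 1 gene; for 291 genes with several rows the row with the highest mean was used. Array column medians over all rows ran from 5.51 to 5.67, and no further normalization was applied. The number of arrays limits the precision. The series text says that 4 arrays come from an earlier series and not which.

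Fits used limma 3.58.1 in R 4.3.3 (group means over all 12 arrays, eBayes, Benjamini-Hochberg over 18166 genes, adjusted p under 0.05). The unpaired fit was also run on simulated arrays with known effects, with noise independent between arrays and no effect of title number. That run therefore cannot show how the fits behave where arrays of 1 number deviate together. Intervals and the SE in the text are those of the unpaired fit unless the paired fit is named. Groups and numbers came from sample titles. Deviations from group means correlated between arrays of the same number by 0.63 to 0.77, 0.48 to 0.58 and 0.43 to 0.55 for numbers 1, 2 and 3, so the numbers were read as paired. Figures used matplotlib 3.10.9.

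Members, the 5 other pathway lists and the 5 marker lists (141 memberships in all, 128 with a row) were chosen with earlier results of these data known. Named were all members, Nr0b2, up to 3 genes of each pathway list with the smallest p in a comparison, and the 5 genes most like Lifr and Lif. Gfap, Cx3cr1 and Stmn2, and Socs3, Osm and Stat3 with GW, were named outside this rule after their values were seen. Alternatives were centring, quantile normalization, a filter on low values, the mean of a gene's rows, the block, fits of 2 groups only, and leaving out arrays or numbers.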

Additional observations from a re-analysis of the deposited data

How the results depend on the processing

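Of 875 recomputed differences (members and Nr0b2) 829 were counted as unchanged. These include differences that passed in neither fit even where their sign changed, as for Osmr with GW (0.08, and -0.16 without number 1). They also include Lifr with GW, which had no test. Of the others, 0 reversed with a call in either fit, 44 passed only in the alternative and 2 passed only in the fit reported. Those 2 were Il11 for number 1 against numbers 2 and 3, at 0.37 without the IFN-γ array numbered 1 and 0.46 without the IFN-γ + GW array numbered 1. The unpaired fit of IFN-γ against control siRNA called 22 genes, against 170 with the replicate block and 7 with only these 2 groups. For IFN-γ + GW against IFN-γ the unpaired 161 stood against 79 after centring, 1189 with the block and 4 with only 2 groups; for IFN-γ + GW against control siRNA 157 stood against 79, 1242 and 32. Members called were 5 with the block in each of the last 2 comparisons, against 0 unpaired. SHP siRNA gave 0 members and 0 genes with the block. Leaving out arrays or numbers gave 0 to 856 genes and 0 to 3 members for IFN-γ, 0 to 2081 and 0 to 5 for GW, 0 to 1028 and 0 to 6 for IFN-γ + GW against control siRNA, 0 to 267 and 0 to 1 for SHP siRNA, and 6020 to 6672 and 5 to 6 for number 1. Each upper end of the first 4 was the fit without number 1. Without the IFN-γ array numbered 1 alone, Clcf1 (2.05), Il11 (1.23), Il6r (0.89) and Lif (2.95) passed with GW. With the block, an alternative chosen after seeing the data left out each number: 0 to 731 genes and 0 to 2 members for IFN-γ, 12 to 1776 (12, 86 and 1776) and 0 to 5 for GW, 25 to 779 and 0 to 5 for IFN-γ + GW against control siRNA, and 0 to 231 and 0 members for SHP siRNA. Signal over background limits Il11, Il6 and Nr0b2.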
